A study of Trametes versicolor with 17 samples.

Results

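A set of 99 genes of the white-rot fungus Trametes versicolor was lower under each of 3 aqueous phases than in untreated pellets after 3 days. A gene belonged to the set when its lowest control library was at least 1.5 times its highest exposed library, in CPM (counts divided by the total of the library and multiplied by 1e6). Its control mean also had to reach 5 CPM, and the 7-day libraries had to hold at least 1 count of it. Of 14296 gene models 7544 met the last conditions, and 99 of them (1.31%) met the ratio. The levels at 3 days chose these genes, so their difference from control at 3 days is given as a description, without a test.

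All pellets carried the strain label ASM 8036 and grew at 28 °C and 135 rpm in medium with 2% malt extract. Controls received nothing further, and treated cultures received 5% of the aqueous phase of hydrothermal liquefaction of food waste (FW), of salad dressing waste (SD) or of algal biomass waste (AB). The batch called main held 3 libraries of each of these 4 groups after 3 days (72 h), and the batch called preliminary held 3 libraries of AB and 2 of control after 7 days. Time and batch therefore cannot be told apart.

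White-rot fungi break down lignin and other aromatic polymers with secreted oxidative enzymes and take up the products. Hydrothermal liquefaction heats wet biomass under pressure to make a crude oil, and the water left behind carries dissolved organic acids, phenols and nitrogen compounds, many of which slow microbial growth. In these bulk samples fewer cells of a kind and less RNA per cell cannot be told apart.

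None of the 99 genes carries a gene symbol. Locus tags (TRAVEDRAFT numbers) came from RefSeq's table of the reference strain for 98 of them, and 1 keeps the name of the count table, gene_12907. The reference table gives no product descriptions, so no function is stated for any of these genes. Among the 42 symbol genes of the table the laccase TvLac7, a copper enzyme that oxidises phenols, had a ratio of 2.07 and was left out of the set by its rule. LDO1 (1.23) and DyP1, a dye-decolorising peroxidase (1.14), were left out as well and did not reach the ratio.

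Library totals were 15459249 to 18770043 counts at 3 days, where 3 counts correspond to 0.16 to 0.194 CPM, and 27654678 to 35223283 at 7 days. Scaling factors by TMM (trimmed mean of M values) were 1.07 to 1.12 in the SD libraries and 0.93 to 1.0 in the other libraries at 3 days. The rule used plain totals, and on TMM-scaled totals 151 genes met it, among them all 99. At 7 days the 2 controls had factors of 1.24 and 0.861 and differed from each other in many of the genes described here. The biological coefficient of variation was 0.188 at 3 days and 0.455 at 7 days.

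Levels of the 99 genes in the 3-day controls ran from 5.41 to 4307 CPM, with a median of 64.7 CPM. The ratio of the control mean to the mean of the exposed libraries had a median of 4.06 under FW (range 1.77 to 31.0), 2.89 under SD (1.70 to 13.9) and 13.4 under AB (1.87 to 283). The ratio of 283 is that of TRAVEDRAFT_60757, which had 1 count in the 3 AB libraries together. On the log2 scale of the fitted model the medians were -2.01, -1.71 and -3.75, where the medians over all 10838 tested genes were -0.01, -0.01 and -0.06. A difference of at least 10-fold was seen in 13 genes under FW, 8 under SD and 55 under AB. The AB libraries thus held the lowest levels of most of the set, and 21 genes had a mean under 1 CPM there, against 3 under FW and 3 under SD.

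**Figure D1:**
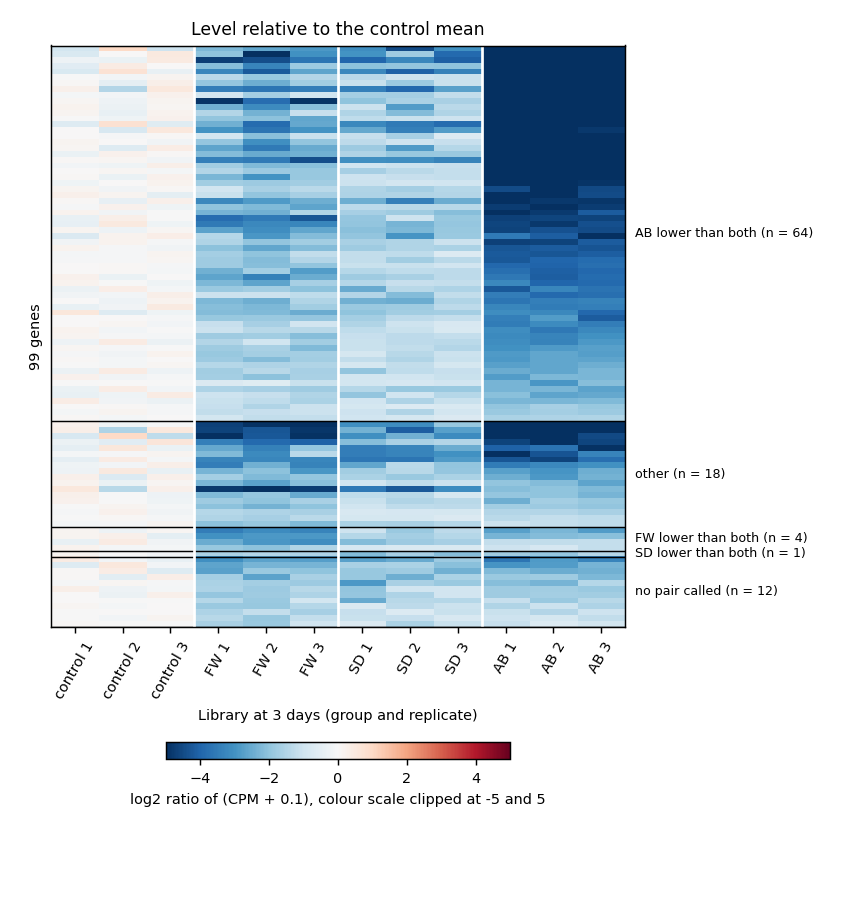
Each row is 1 of the 99 genes and each column 1 of the 12 libraries at 3 days. The colour gives the log2 ratio of CPM + 0.1 to the control mean + 0.1, clipped at -5 and 5, and rows are grouped by the tested differences between the phases. The AB columns are darkest in the 64 genes at the top, while the 12 genes at the bottom have like colours under all 3 phases.

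The order of the phases was the same in most genes. The mean was lowest under AB in 81 genes, under FW in 15 and under SD in 3, and it was highest under SD in 76, FW in 19 and AB in 4. In 65 genes the levels ran from AB over FW to SD. These orders are of CPM on plain totals, and scaling can change them where FW and SD are close. TRAVEDRAFT_28463, for example, had means of 1981 CPM under SD and 1936 under FW, but a fitted log2 FW minus SD of 0.14. The highest exposed library, which decided whether a gene entered the set, was an SD library in 76 genes. Of the controls, replicate 2 was the lowest in 42 genes, and 168 genes would meet the rule without it.

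Per kb of exon, the highest level among the 99 genes was that of TRAVEDRAFT_20894 (scaffold 7, 272864 to 273478, 4 exons of 429 bases in all), at 3767 CPM per kb in the controls. Its control libraries had 1679, 1290.0 and 1879.5 CPM, those of FW 336, 204 and 429, those of SD 779.9, 729 and 707, and those of AB 43.3, 45.3 and 37.8. The 4 groups did not overlap, with AB lowest, then FW, then SD. Its control mean was 5.0 times the FW mean, 2.19 times the SD mean and 38.3 times the AB mean.

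TRAVEDRAFT_28463 (scaffold 5, 289596 to 291805, 7 exons) was the gene with the most counts, at 4057, 4745 and 4120.1 CPM in the controls. FW libraries had 1833, 1949 and 2024 CPM, SD libraries 2128, 1519 and 2295, and AB libraries 1193, 1333 and 1238. It kept a high level under every phase, and its FW and SD libraries overlapped. TRAVEDRAFT_127701 (scaffold 8, 723251 to 725642) had 1427 to 1665 CPM in the controls, 349.7 to 452 under FW, 617 to 687 under SD and 154 to 184 under AB. TRAVEDRAFT_80160 (scaffold 3, 523286 to 523873) had 365 to 688 CPM in the controls and 42.5 to 52.5, 98.1 to 127 and 17.1 to 23.5 CPM under FW, SD and AB. In both genes the order was again AB, FW, SD, without overlap between groups.

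The widest gap between the controls and all 9 exposed libraries was that of TRAVEDRAFT_51581 (scaffold 11, 118611 to 119330, a single exon), with a ratio of 8.02. It had 21.9, 21.2 and 36.1 CPM in the controls, 0.906, 1.12 and 2.02 under FW, 1.46 to 2.64 under SD, and 0, 0.117 and 0.291 under AB. TRAVEDRAFT_44667 (scaffold 3, 2105978 to 2108240, 21 exons in 1077 bases) followed with a ratio of 7.51. Its controls had 28.0, 29.4 and 24.0 CPM, and its exposed libraries 1.17 to 2.43 under FW, 2.59 to 3.20 under SD and 0.524 to 0.703 under AB. Both genes were scarce in every exposed culture, at under 4 CPM.

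Next in that ratio came TRAVEDRAFT_127573 (5.23), TRAVEDRAFT_73710 (4.04), TRAVEDRAFT_134403 (3.67) and TRAVEDRAFT_52959 (3.44). TRAVEDRAFT_73710 (scaffold 9, 2126987 to 2130456) had 117, 83.2 and 132 CPM in the controls against 11.9 to 20.1 under FW, 10.1 to 20.6 under SD and 3.30 to 3.81 under AB. TRAVEDRAFT_134403 and TRAVEDRAFT_52959, both on scaffold 13, had their highest level in control replicate 2, at 33.2 and 41.1 CPM against at most 15.8 CPM in the other controls. At the edge of the rule, the genes just inside were TRAVEDRAFT_152993 (ratio 1.51), gene_12907 (1.52) and TRAVEDRAFT_75024 (1.52). Just outside lay TRAVEDRAFT_55968 (1.497), TRAVEDRAFT_159338 (1.495) and TRAVEDRAFT_49506 (1.478).

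**Figure D2:**
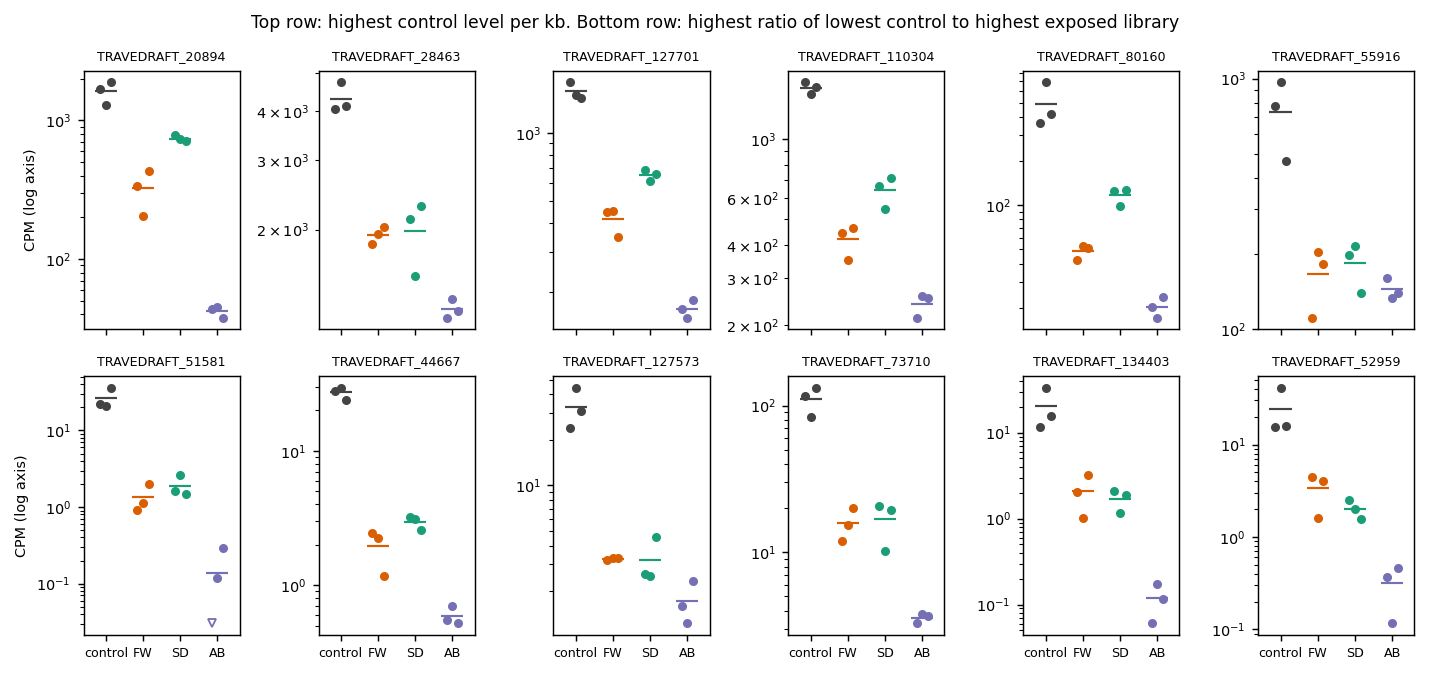
Points are the CPM of single libraries at 3 days on a log axis and bars are group means, with an open triangle for a library without counts, drawn at its place below the other points. The top row holds the 6 genes with the highest control level per kb and the bottom row the 6 with the highest ratio. All control points lie above all exposed points, as the rule requires, and the AB points are lowest in all 12 panels except TRAVEDRAFT_55916, where FW replicate 1 is lowest.

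The genes with the largest fitted differences under each phase were partly the same. TRAVEDRAFT_33676 (scaffold 1, 3704440 to 3706138) had the widest difference under FW, with 51.8, 38.0 and 42.9 CPM in the controls and 1.64, 1.36 and 1.28 under FW. SD libraries kept 5.13, 5.10 and 11.9 CPM, and AB libraries 0.671, 0.644 and 0.815. TRAVEDRAFT_24769 (scaffold 15, 601733 to 602951) also had 1 of the 6 lowest fitted values under FW. It had 1.23 to 1.89 CPM under FW against 47.4, 13.0 and 54.5 in the controls. Control replicate 2 was far below the others. Under AB the log2 values of TRAVEDRAFT_33676 and TRAVEDRAFT_24769 against control were lower still, at -5.94 and -5.92, with -4.95 and -4.66 under FW. TRAVEDRAFT_28848 (scaffold 5, 2901267 to 2902766) had the lowest fitted value under AB, -7.84 on the log2 scale, from 24.8, 93.9 and 23.1 CPM in the controls to 0.366, 0 and 0.233. Its control mean rests on replicate 2 to a large part. TRAVEDRAFT_60757 (-7.71), TRAVEDRAFT_46074 (-7.47), TRAVEDRAFT_134403 (-7.33) and TRAVEDRAFT_154197 (-6.92) were also among the 6 lowest under AB. Over the 3 AB libraries together TRAVEDRAFT_60757 had 1 count (SE 1.07), TRAVEDRAFT_134403 had 6 and TRAVEDRAFT_28848 had 10. Fitted values from so few counts lie near the floor, and their ranks are uncertain. TRAVEDRAFT_46074 had 30 counts there and TRAVEDRAFT_154197 had 406. Under SD the lowest fitted values were those of TRAVEDRAFT_51581 (-3.98), TRAVEDRAFT_28331 (-3.77), TRAVEDRAFT_52959 (-3.74), TRAVEDRAFT_134403 (-3.73), TRAVEDRAFT_28848 (-3.60) and TRAVEDRAFT_49186 (-3.60).

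The phases were then compared with each other. The rule capped the highest of the same 9 exposed libraries, so the counts and shares of calls that follow describe the set, and nothing is read from setting them against all tested genes. Each adjusted p below is from edgeR's quasi-likelihood test over all 10838 genes, two-sided, with Benjamini-Hochberg adjustment, and a gene was called at 0.05. Against AB, 67 of the 99 genes were called higher under FW, where 21.9% of all tested genes were, and 6 lower (20.2% of all). Under SD 78 were called higher than under AB (28.3% of all) and 4 lower (25.9%). Between FW and SD 30 were called lower under FW (12.1% of all), 2 higher (13.3%) and 67 were not called. The median differences were 1.29 for FW minus AB, 1.82 for SD minus AB and -0.31 for FW minus SD on the log2 scale, against 0.01, 0.05 and -0.01 over all tested genes.

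**Figure D3:**
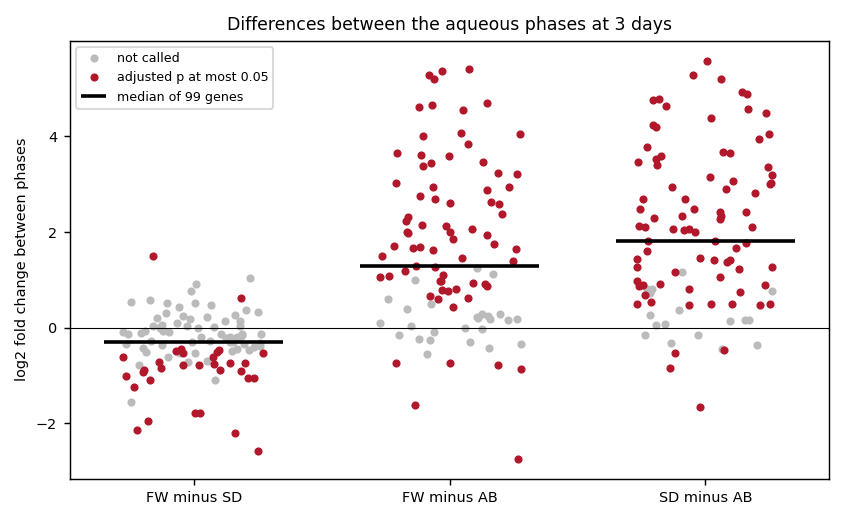
Each point is the log2 fold change of 1 of the 99 genes between a pair of phases at 3 days, red where the adjusted p was at most 0.05, with the median as a black bar. Most points of FW minus AB and SD minus AB lie above 0, while the points of FW minus SD spread around a median of -0.31.

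By these calls, again as a description, 64 genes were lower under AB than under both other phases (17.0% of all tested genes), 4 were lower under FW than under both others (2.29%), 1 was lower under SD (8.74%), 12 had no called pair (34.7%) and 18 showed other combinations. TRAVEDRAFT_154197 (scaffold 11, 1704374 to 1707003) is a clear case of the first kind. It had 963, 889.7 and 1072 CPM in the controls, 387, 261 and 351 under FW, 386, 475 and 449 under SD and 8.79, 6.21 and 9.08 under AB. FW and SD overlapped while every AB library was far below, with log2 differences to AB of 5.37 (SE 0.21, adjusted p = 1.53e-09) for FW and 5.58 (SE 0.21, adjusted p = 8.22e-10) for SD. TRAVEDRAFT_46074 had differences of 5.19 (SE 0.45) and 5.28 (SE 0.45), from 10.6 to 30.4 CPM under FW and 25.7 to 26.9 under SD to 0.488 to 0.761 under AB. TRAVEDRAFT_68771 (4.70, SE 0.39, and 4.39, SE 0.39) and TRAVEDRAFT_47143 (4.04, SE 0.22, and 4.94, SE 0.23) were of this kind too, and so was TRAVEDRAFT_50829, where SD exceeded AB by 5.19.

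TRAVEDRAFT_55003 (scaffold 1, 633840 to 636098) belonged to the same class. Its libraries had 734, 716 and 907 CPM in the controls, 404, 240.4 and 397 under FW, 242, 239 and 335 under SD and 8.85, 7.67 and 7.86 under AB. FW exceeded AB by 5.41 on the log2 scale (SE 0.25, adjusted p = 4.97e-09) and SD exceeded AB by 4.89 (SE 0.25). The gene starts 5657 bases after the end of LDO1.

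The reverse order, with AB highest, was found in few genes. TRAVEDRAFT_28331 (scaffold 4, 2715782 to 2716904) had 800.4, 213 and 672 CPM in the controls, 19.9, 17.9 and 20.7 under FW, 47.2, 29.5 and 63.2 under SD and 129, 138 and 123 under AB. The exposed groups did not overlap, and AB was higher than FW (log2 difference FW minus AB -2.74, SE 0.40, adjusted p = 0.000117) and than SD (SD minus AB -1.65, SE 0.38, adjusted p = 0.00254). TRAVEDRAFT_55609 (scaffold 1, 3148151 to 3149923) had 44.5 to 69.2 CPM under FW, 85.6 to 122 under SD and 164 to 168 under AB, below controls of 298, 508 and 343. FW was lower there than SD (-0.78, adjusted p = 0.0137, lost without FW replicate 2 or 3 or SD replicate 3) and than AB (-1.62, adjusted p = 3.74e-05). TRAVEDRAFT_159079 had the same order of means, with differences of -0.86 for FW minus AB and -0.53 for SD minus AB.

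Genes lowest under FW included TRAVEDRAFT_164154 (scaffold 3, 3403243 to 3406417), an abundant gene with 1168, 1249 and 756 CPM in the controls. It had 129.8, 146 and 143 CPM under FW, 396, 326 and 390.0 under SD and 213, 238 and 247 under AB, with no overlap between the exposed groups (FW minus SD -1.23, adjusted p = 0.000269, and FW minus AB -0.74, adjusted p = 0.00274). TRAVEDRAFT_79164 and TRAVEDRAFT_165188 were lowest under FW as well, with FW minus AB differences of -0.73 and -0.78, the first not called without FW replicate 1 or 3 or AB replicate 2. Largest between FW and SD was the difference of TRAVEDRAFT_111275 (scaffold 1, 239989 to 240342), at 3.23, 6.97 and 3.20 CPM under FW and 24.3, 33.2 and 32.0 under SD (-2.57, SE 0.29, adjusted p = 8.11e-05). TRAVEDRAFT_33676 followed with -2.19 (SE 0.32, adjusted p = 0.000449). TRAVEDRAFT_30590 came after it with -2.13 (SE 0.25, adjusted p = 0.000107).

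In 12 genes no pair of phases was called, which does not show that their levels were equal. TRAVEDRAFT_55916 (scaffold 1, 4991892 to 4992905) had 777, 965 and 469 CPM in the controls, 111, 202 and 182 under FW, 197, 215 and 139 under SD and 159.9, 133 and 139 under AB. All exposed groups overlapped, and the differences between phases were 0.03 to 0.20 on the log2 scale with an SE of 0.26 each. TRAVEDRAFT_145614 had means of 8.75, 8.72 and 8.60 CPM under FW, SD and AB against 33.6 in the controls, with differences of at most 0.18 (SE 0.31). TRAVEDRAFT_121918 had means of 55.8, 70.1 and 47.7 CPM against 165.

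The 7-day libraries were not used to pick the direction of any gene, so AB against control was tested there. Of the 99 genes 88 passed the filter on low counts. TRAVEDRAFT_75586, TRAVEDRAFT_17315, TRAVEDRAFT_114134, TRAVEDRAFT_49753 and TRAVEDRAFT_68127 fell, 5 of 88 where 2.4% of all 10192 tested genes fell, and none rose (0.873% of all). At an unadjusted p under 0.05 24 genes were lower and 3 higher, where 11.2% and 9.89% of all tested genes were. DESeq2 called 19 lower, where it called 6.63% of all genes lower, and 3 higher (6.73% of all), and the 5 genes were among the 19. The median log2 fold change of the 88 genes was -0.67, against -0.01 over all tested genes, and 36 genes (40.9%) were at or below -1 where 13.5% of all were. At or above 1 lay 11 genes (12.5%, against 13.3% of all).

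Without a model, 72 of the 99 genes had a mean of at least 1 CPM at 7 days. In 30 of them (41.7%) both controls lay above all 3 AB libraries, where 21.2% of all such genes did, and in 2 (2.78%) all AB libraries lay above both controls, where 16.1% did. The groups overlapped in the other 40. The calls depended on the pair of controls. None of the 5 genes was called without control replicate 1, where 1 other gene was, or without control replicate 2, where no gene of the set was.

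**Figure D4:**
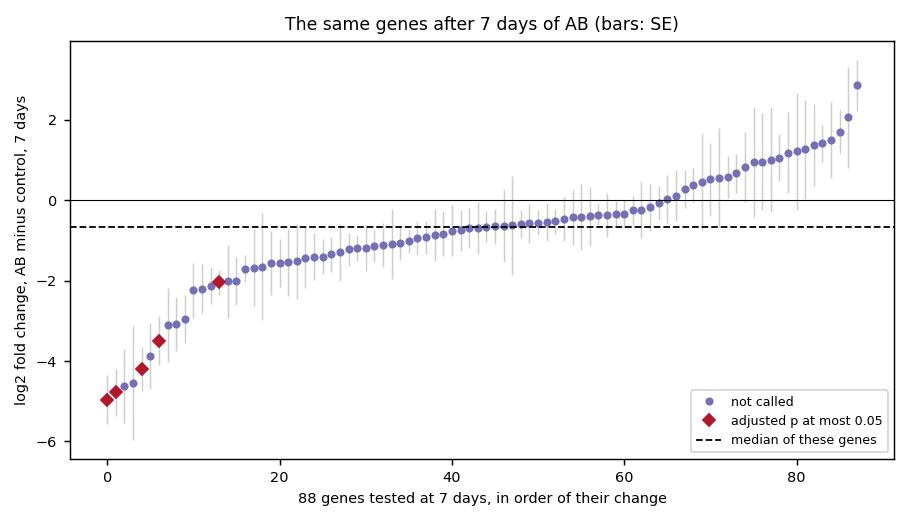
Points are the 88 tested genes in order of their log2 fold change under AB at 7 days, with bars of 1 SE, and the dashed line marks their median of -0.67. The 5 called genes, drawn as diamonds, lie between -4.96 and -2.05, and no gene to the right of 0 was called.

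TRAVEDRAFT_75586 (scaffold 16, 375145 to 376280) fell most at 7 days among the called genes. It had 24.2 and 24.2 CPM in the controls and 1.30, 0.289 and 0.653 under AB, which is -4.96 in log2 (SE 0.61, adjusted p = 0.0167). At 3 days its mean went from 75.3 ± 12.2 CPM (SD, n = 3) in the controls to 2.51 ± 0.349 under AB. Its model overlaps TRAVEDRAFT_136635 on the opposite strand by 44 bases, and reads from that stretch cannot be told apart without a strand setting. TRAVEDRAFT_114134 (scaffold 2, 2146740 to 2147203) fell from 27.2 and 6.96 CPM to 1.08, 0.615 and 0.681 (-4.21, SE 0.55, adjusted p = 0.0193). TRAVEDRAFT_49753 (scaffold 8, 2244539 to 2246072) was scarce, at 1.30 and 0.627 CPM in the controls and 0.0568 to 0.0926 under AB (-3.50, SE 0.61, adjusted p = 0.0406).

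TRAVEDRAFT_17315 (scaffold 2, 1032154 to 1032610) was a minor transcript at 3 days, with 7.65, 8.60 and 7.68 CPM in the controls and 2.38, 1.88 and 2.07 CPM on average under FW, SD and AB. At 7 days its controls had 138 and 83.8 CPM, and its AB libraries 5.96, 3.51 and 1.62 (-4.78 in log2, SE 0.58, adjusted p = 0.0165). The control level was thus higher in the later batch, while the AB level stayed low in both.

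TRAVEDRAFT_68127 (scaffold 1, 1809736 to 1811679) fell from 108 and 102 CPM to 27.1, 18.4 and 27.9 at 7 days (-2.05, SE 0.32, adjusted p = 0.0301). At 3 days it had 1067, 1059 and 1180.4 CPM in the controls and 58.8, 70.6 and 76.4 under AB. Its neighbour TRAVEDRAFT_110304 (scaffold 1, 1807264 to 1809079) is also in the set and is read from the other strand, so that the genes lie head to head with 656 bases between them. TRAVEDRAFT_110304 had 1636, 1478 and 1570.4 CPM in the 3-day controls, 443, 352 and 465 under FW, 665, 546 and 713 under SD and 213, 257 and 251 under AB. At 7 days its values were 352 and 221 CPM in the controls and 208, 166 and 177 under AB, a difference that was not called (-0.53, SE 0.31, adjusted p = 0.387). Each of these neighbours has 6 exons.

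Neighbouring members formed 5 pairs. Of the 99 genes 10 (10.1%) had another member as the next gene model on its scaffold, against 111 of 7445 (1.49%) of the genes that could have met the rule and did not. A second head-to-head pair was TRAVEDRAFT_50828 and TRAVEDRAFT_50829 on scaffold 10 (308311 to 310617 and 312562 to 313983), with 3.88 to 15.8 and 25.9 to 43.9 CPM in the controls. Both lay under 0.4 CPM in every AB library of the 3-day batch, and at 7 days neither exceeded 0.19 CPM in any library.

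The other 3 pairs share a strand. TRAVEDRAFT_23498 and TRAVEDRAFT_52130 (scaffold 11, 2006419 to 2007730 and 2008644 to 2009974) lie 913 bases apart, and both models have 10 exons and 762 bases of exon. Reads shared between near-identical copies would make their values uncertain, and the sequences were not compared here. Their levels differed, with 19.7, 69.1 and 14.1 CPM in the controls for the first and 197, 316 and 191 for the second. Under FW the first had 0.906 to 1.71 CPM and the second 70.5 to 118, log2 values against control of -4.82 and -1.37. Both had their highest control value in replicate 2.

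gene_12907 (scaffold 13, 1757277 to 1761415, 21 exons) and TRAVEDRAFT_134935 (1766287 to 1767653) lie 4871 bases apart. Levels of gene_12907 were 2336, 2207 and 2425 CPM in the controls, 1235, 550.0 and 1063 under FW, 1051, 729 and 1453 under SD and 46.7, 31.8 and 42.0 under AB. TRAVEDRAFT_134935 had 469.8, 279 and 571 CPM in the controls and 7.50 to 9.02 under AB. In both, replicate 2 was the lowest of the control, FW, SD and AB libraries. At 7 days the controls held 6.60 and 4.04 CPM of the first and 0.0635 and 0.0627 CPM of the second. On scaffold 9 TRAVEDRAFT_30590 and TRAVEDRAFT_50424 (1627172 to 1629152 and 1629646 to 1629996) lie 493 bases apart, at means of 137 and 39.3 CPM in the controls and 5.39 and 1.05 under AB.

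Scaffold 8 held 13 members of its 359 genes that could meet the rule (3.62%). Scaffold 13 held 9 of 305 (2.95%), scaffold 11 held 7 of 260 (2.69%) and scaffold 5 held 11 of 501 (2.2%). Scaffold 1 held 16 of 1202 (1.33%) and scaffold 3 held 5 of 873 (0.573%). Among the scaffolds with few members, scaffold 17 held 2 of 71 (2.82%) and scaffold 6 held 1 of 431 (0.232%), the lowest share of any scaffold with a member. Within 30.3 kb of scaffold 8 (301249 to 331561) lie TRAVEDRAFT_49186, TRAVEDRAFT_49191 and TRAVEDRAFT_49195, a stretch that was picked out after its values were seen. Each is a short model of 2 exons, with 330, 375 and 462 bases of exon. Of the other 7 models between them a single one, TRAVEDRAFT_170218, reached a control mean of 5 CPM, at 28.1 CPM in the controls and 25.8, 35.8 and 32.9 under FW, SD and AB.

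In the 3 short genes of scaffold 8 the mean was highest under FW, as in 19 genes of the set, while it was highest under SD in 76. TRAVEDRAFT_49186 had its lowest mean under AB, as did 81 genes of the set. TRAVEDRAFT_49191 had 29.2, 25.7 and 24.2 CPM in the controls, 8.66 to 9.51 under FW, 5.79, 8.25 and 6.02 under SD and 7.63, 6.91 and 9.72 under AB. It was the one gene called lower under SD than under both other phases (FW minus SD 0.61, adjusted p = 0.0208, and SD minus AB -0.46, adjusted p = 0.0403). TRAVEDRAFT_49186, at 7.27 to 8.39 CPM in the controls, was the other gene called higher under FW than SD (1.49, SE 0.51, adjusted p = 0.0476). Neither was called higher under FW in a fit of the compared groups alone (adjusted p = 0.0527 for TRAVEDRAFT_49191 and 0.0667 for TRAVEDRAFT_49186), without FW replicate 3 (0.0526 and 0.238) or without SD replicate 1 (0.0571 and 0.11). TRAVEDRAFT_49186 also lost its call without any 1 control, FW replicate 1, SD replicate 2 or 3, or AB replicate 2. TRAVEDRAFT_49191 lost it without SD replicate 3. The SD minus AB call of TRAVEDRAFT_49191 was lost in 8 of 18 refits, among them those without SD replicate 1 or 3 or AB replicate 1 or 3 (adjusted p = 0.0564 to 0.196). TRAVEDRAFT_49195 had 9.64 to 10.1 CPM in the controls and 3.82, 2.99 and 3.57 CPM on average under FW, SD and AB, with no pair called.

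At 7 days the controls of TRAVEDRAFT_49186 had 44.4 and 15.4 CPM against 6.29, 2.31 and 0.511 under AB. Those of TRAVEDRAFT_49191 had 33.3 and 22.7 CPM against 18.6, 5.24 and 5.68, and those of TRAVEDRAFT_49195 had 50.1 and 50.0 against 20.8, 4.70 and 5.31. In all 3 genes both controls lay above every AB library, with log2 values of -3.11 (SE 0.92), -1.41 (SE 0.59) and -2.24 (SE 0.69) and adjusted p-values of 0.13, 0.242 and 0.139, none of which passed the threshold. With DESeq2 TRAVEDRAFT_49186 (adjusted p = 0.00842) and TRAVEDRAFT_49195 (adjusted p = 0.0239) were called.

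Control levels of the set differed between the batches. The median of the 99 control means was 64.7 CPM at 3 days and 6.88 CPM at 7 days, and 23 genes were under 1 CPM in the later controls. In 80 genes (80.8%) both 7-day controls lay below every 3-day control, against 45.8% of the genes that could have met the rule. High 3-day controls were a condition of the set, so this share is a description. In 33 genes the mean of the 7-day controls lay below every exposed library of the 3-day batch. TRAVEDRAFT_80160, for example, had 0.666 and 0.188 CPM in the 7-day controls. No share over all genes that could have met the rule was computed for these 33 genes or for the 23 under 1 CPM. Both counts therefore only describe the set. The reverse, both 7-day controls above every 3-day control, held for TRAVEDRAFT_17315, TRAVEDRAFT_49186, TRAVEDRAFT_49195 and TRAVEDRAFT_67702. In each of these 4 the 7-day controls lay above all AB libraries of their batch. High 7-day controls picked out these 4 genes, which favours that separation, so it is a description. Background shares were not computed for it or for the count of 4.

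**Figure D5:**
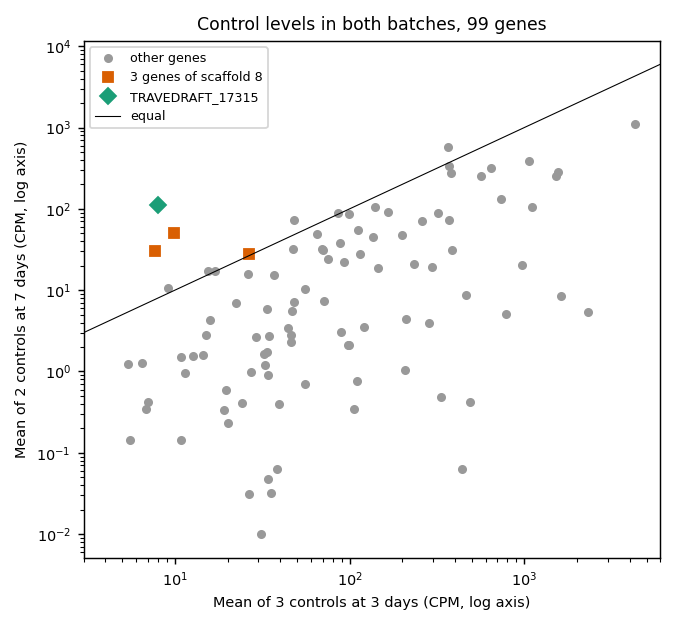
Each point is 1 of the 99 genes, with its control mean at 3 days on the x axis and at 7 days on the y axis, both in CPM on log axes, and the line marks equal levels. TRAVEDRAFT_67687, which had no counts in the 7-day controls, is drawn at the lower edge. Most points lie below the line, while TRAVEDRAFT_17315 and the 3 genes of scaffold 8 lie on or above it.

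The size of the difference under AB at 3 days did not go along with that at 7 days within the set. Over the 88 genes Pearson's r was 0.073 and Spearman's rho 0.013, against 0.347 and 0.336 over 10011 genes tested at both times. These correlations are a description across genes, which share their libraries and are not independent replicates, and the range of the 99 genes is cut by their choice.

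The gene models of the set were short and of ordinary structure. Their exon length had a median of 1149 bases (189 to 4062) and their exon number a median of 5, against 1458 bases and 6 exons in all genes that could have met the rule. Single-exon models made up 5.05% of the set (5 genes) and 3.14% of that background. In the 3-day controls the median level per kb was 65.8 CPM in the set and 26.4 CPM in the background. Models that overlap another one numbered 2, TRAVEDRAFT_75586 and TRAVEDRAFT_172795, the latter by 51 bases with TRAVEDRAFT_30984 on the opposite strand.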

How the data were processed

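The authors deposited raw counts of reads, 1 whole number for each gene model and library, without normalisation. HISAT2 and featureCounts are named, per the submitters' processing notes. Not given in the sources used here were versions, genome build, strand setting and the treatment of multiply mapped reads. PolyA libraries were made from 200 ng of pellet RNA, per the labels' protocols. The other deposited column used was the exon length of each model, in bases. Models were named by exact start and end in RefSeq's table of Trametes versicolor v1.0 (14214 of 14296 matched).

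Members, lists and naming rules were chosen with earlier results of these data known. Named genes were the 6 highest per kb, the 6 with the highest ratio, the 6 lowest fitted values per phase, called genes at 7 days, the 4 largest called differences per direction between phases with a mean of 10 CPM, neighbours, and 3 genes each side of the ratio. The genes of scaffold 8, the 4 with higher 7-day controls, TRAVEDRAFT_145614, TRAVEDRAFT_121918 and TRAVEDRAFT_172795 were added after their values were seen.

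Levels are CPM on plain library totals. Fits used edgeR 4.0.16 in R 4.3.3 (TMM, default filter by group, quasi-likelihood F test, two-sided, Benjamini-Hochberg over all genes of a comparison): 1 model of 12 libraries at 3 days (10838 genes, 8 residual degrees of freedom) and 1 of 5 libraries at 7 days (10192 genes, 3). The SE is the absolute log2 fold change over the square root of F, and is approximate. Alternatives were RLE size factors, DESeq2 1.42.0, other filters, fits of the compared groups alone, a replicate block, leaving out libraries, and other settings of the rule. The code was tested on simulated data. No library was a repeat of another of its own group (chi-square per degree of freedom at least 13.1), and libraries of different groups were not compared in this way. Replicates are biological by their titles, so a p-value reflects differences among these samples only. Planned product lists, protein comparisons and promoter motifs were not run, as no descriptions or sequences were used here.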

Additional observations from a re-analysis of the deposited data

Results flagged for a closer look

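Of the 88 genes tested at 7 days, 4 had every AB library above both controls, where 15.2% of all 10192 tested genes did, opposite to 3 days, where every AB library lay below every control by the rule. These were TRAVEDRAFT_55609, with 29.7 and 32.4 CPM in the controls and 225, 325 and 97.3 under AB (log2 fold change 2.86, SE 0.64, edgeR adjusted p = 0.0719), TRAVEDRAFT_55003, with 3.97 and 6.11 against 15.8, 9.62 and 15.2 CPM (1.42, SE 0.46, edgeR adjusted p = 0.153), TRAVEDRAFT_50424, with 0.444 and 0.345 against 1.64, 1.05 and 0.965 CPM (1.71, SE 0.53, edgeR adjusted p = 0.143), and TRAVEDRAFT_73710, with 0.761 and 0.752 against 0.868 to 1.36 CPM (0.67, SE 0.48, edgeR adjusted p = 0.484). DESeq2 called the first 3 of them higher. The difference between the 2 times was not tested, since the 3-day values chose the genes and time and batch cannot be told apart.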

How the results depend on the processing

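The rule was met by 151 genes on TMM-scaled totals (147 with RLE), 230 at a looser ratio, 41 at a ratio of 2, and 99 to 168 when 1 library was left out, the highest without control replicate 2. The count of genes called lower at 7 days was 5 in the fit described, 19 with DESeq2, 1 with the replicate block and 0 to 8 without 1 library, and of those called higher 0, with 3 by DESeq2 and 0 to 1 without 1 library. Leaving out either 7-day control ended all 5 calls, and over all settings the 5 genes lost their call in 18 of 48 refits (edgeR adjusted p 0.0555 to 0.372) without a change of direction. The median at 7 days was -1.04 at a filter of 10 CPM, where fewer genes are tested, and otherwise -0.91 to -0.61. Between FW and SD, 2 genes were called higher under FW, 1 at a filter of 10 CPM, 4 with the replicate block, 0 in a fit of these groups alone and 0 to 3 without 1 library. The cause of these shifts was not tested. The other counts between phases stayed within 1.5 times the count given, and the 96 called differences between phases of the named genes kept direction and call in 1638 of 1708 refits. No direction was reversed, and the calls lost include those of TRAVEDRAFT_49186 and TRAVEDRAFT_49191. The fits described did not pair libraries by replicate number. Correlations of deviations between libraries of the same number were -0.175 to 0.394 at 3 days, and -0.219 and -0.195 at 7 days. Between different numbers they were -0.398 to 0.315 at 3 days. The replicates 2 of control, FW and SD correlated at 0.281 to 0.394, and whether they had a source in common was not tested. The 7-day test rests on 2 controls and 3 AB libraries.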
